A study of Mus musculus with 6 samples.

Results

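The genes described here make, lengthen, desaturate, store and burn fatty acids. They were chosen by name: 33 mouse genes whose probes were found on the array through the RefSeq accession each probe carries, out of 20832 genes named in that way. The 33 genes had 46 probes, of which 42 passed the signal filter: the scanner flagged them as well above background in every sample of one group or the other. This left 31 measured genes among the 13731 genes tested, and 9 of the 31 had several passing probes. The members were grouped by role into synthesis (7 genes), elongation and desaturation (8), glycerolipid assembly (5), lipogenic transcription factors (2), acyl-CoA synthetases (3) and mitochondrial oxidation (8).

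The samples were primary prostate cells of mice, all p53-/- and all carrying Rbf/f, the Rb gene flanked by sites for Cre recombinase. In 3 Rb deleted samples the cells had received an adenovirus carrying Cre, and in 3 Rb intact samples an adenovirus carrying lacZ. Infection lasted overnight, RNA was taken 48 hours after it, and the medium, Prostacult without FBS, contained bFGF and bEGF. Each RNA was labelled with Cy3 and hybridised to its own 1-colour Agilent array, and the series speaks of independent experiments without saying whether cells came from separate animals. The p-values below therefore measure the spread between these samples, which may be partly technical. The Cre virus and the loss of Rb went together in every sample and cannot be told apart. A culture of this kind can hold several cell types, and fewer cells of a type and less RNA per cell cannot be told apart either.

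Fatty acids are built in the cytosol from acetyl-CoA that ATP-citrate lyase or acetyl-CoA synthetase supplies; acetyl-CoA carboxylase makes malonyl-CoA, and fatty acid synthase joins the units using NADPH. The product, palmitate, is lengthened and desaturated in the endoplasmic reticulum and joined to glycerol. Oxidation runs the other way in mitochondria, behind a gate, carnitine palmitoyltransferase 1, which malonyl-CoA inhibits; peroxisomes shorten very long and branched chains. Prostate epithelium is known for active lipid synthesis under androgen control, and prostate cancers for raised fatty acid synthase.

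Levels are log2 intensity relative to the 75th percentile of each array, so they can be compared between arrays but not between probes. Each difference is the Rb deleted mean minus the Rb intact mean on that log2 scale, given with the standard error (SE) of the limma fit. A gene is said to have risen or fallen where limma's Benjamini-Hochberg adjusted p over all 13731 genes was under 0.05. Values by array are listed in the order 1, 2, 3 of each group.

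The share of probes clear of background ran between 59.0% and 63.3% by array, with 0 saturated spots. Where the Rb1 probe lies with respect to the excised exons is unknown here. It stood at -3.12, -3.11 and -3.07 in Rb deleted samples, against -1.15, -1.13 and -1.16 in Rb intact samples. Its signal fell to 25.8% of that in Rb intact samples (difference -1.96 ± 0.05, limma adjusted p = 8.19e-05). The arrays lay on 2 slides, of which the first held Rb deleted 1 and all Rb intact arrays and the second held Rb deleted 2 and 3. A fit with slide as a block thus rests on the contrast within the first slide and gives the same differences as that slide alone, where the lone Rb deleted array is assumed to have the spread of the Rb intact ones. Rb intact 1 stood apart: its value lay outside the range of the other 5 arrays for 22 of the 31 measured members and for 62.2% of all genes tested. For each other array this held for 5 to 11 members. The value without it is given beside many, but not all, of the differences described by array.

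The label says prostate, and the markers of the cell types a culture could hold were read beside it. All 6 fibroblast markers were well above background on all arrays, with a summed level between 8.08 and 8.17 in Rb deleted samples and between 8.11 and 8.22 in Rb intact samples. Of 6 basal epithelial markers 4 were, with 4.39 to 4.43 in Rb deleted samples and 4.85 to 5.11 in Rb intact samples, and Krt15 was not on any array. Of 8 luminal markers 4 were, with 3.23 to 3.45 in Rb deleted samples and 3.46 to 3.61 in Rb intact samples, and the prostate factor Hoxb13 was not on any array. The basal sum is nearly all Itga6, which stood at 4.31, 4.32 and 4.28 in Rb deleted samples, against 5.03, 4.76 and 4.85 in Rb intact samples. Of the 4 measured basal markers 3 fell (Trp63 by 0.26, Itga6 by 0.58 and Itgb4 by 0.42), and Krt14 differed by 0.07. With slide as a block none of the 3 was called (limma adjusted p = 0.409 for Trp63, 0.0755 for Itga6 and 0.103 for Itgb4), and Trp63 was called under 7 of 20 other settings. Of the 6 fibroblast markers Lum fell by 0.40 (adjusted p = 0.00842; slide as a block -0.48, adjusted p = 0.0543). The part of these markers in the values below was not tested.

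The cultures showed little change in these genes after the loss of Rb. Of 31 measured members, 0 rose and 1 fell, the diacylglycerol acyltransferase gene Dgat2, by a small amount. That count takes each gene's passing probe with the highest mean. In a fit of each probe separately, dimmer probes of Cpt1a (-0.56, limma adjusted p = 0.00258) and Me1 (-0.26, adjusted p = 0.0397) fell. Dgat2 was not called in that fit (adjusted p = 0.0615). Over all genes tested, 9.66% rose, 10.8% fell and 20.4% changed either way. At an unadjusted p under 0.05 there were 7 members (22.6%), against 35.7% of all genes. The groups did not overlap for 7 members (22.6%), against 45.2% of all genes. The median difference was -0.02 over the members and 0.01 over all genes, and the median size of the difference was 0.12 over the members and 0.16 over all genes. The median SE was 0.09 for the members and 0.08 for all genes. Differences of the members ran between -0.45 (Cpt1a) and 0.30 (Lpin1), with 15 higher and 16 lower in Rb deleted samples.

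The 95% intervals given here come from the fit without slide, which treats Rb intact 1 like any other array. They do not allow for a slide effect and so do not bound every change that the arrays could have missed. For all 31 members the 95% interval of the difference lay within a 2-fold change either way, as it did for 92.9% of all genes. For 28 members (90.3%) it lay within 0.5 either way, against 68.2% of all genes. In simulated data the same fit recovered 51.0% of genes changed by 0.5 and 84.8% of those changed by 1. The simulation took only the genes' means and spreads from these arrays, with independent noise and no slide or array effect. Its shares therefore need not hold for these arrays, where changes under 0.5 could have gone uncalled.

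The calls depended on Rb intact 1 and on slide. Without Rb intact 1, 37.2% of all genes changed and 8 members were called: Acadl and Elovl6 rose, and Acly, Cpt1a, Dgat2, Hadhb, Me1 and Mlxipl fell. With slide as a block 4.89% of all genes changed, and with the first slide alone 1.1%; 0 members were called in either limma fit.

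**Figure D1:**
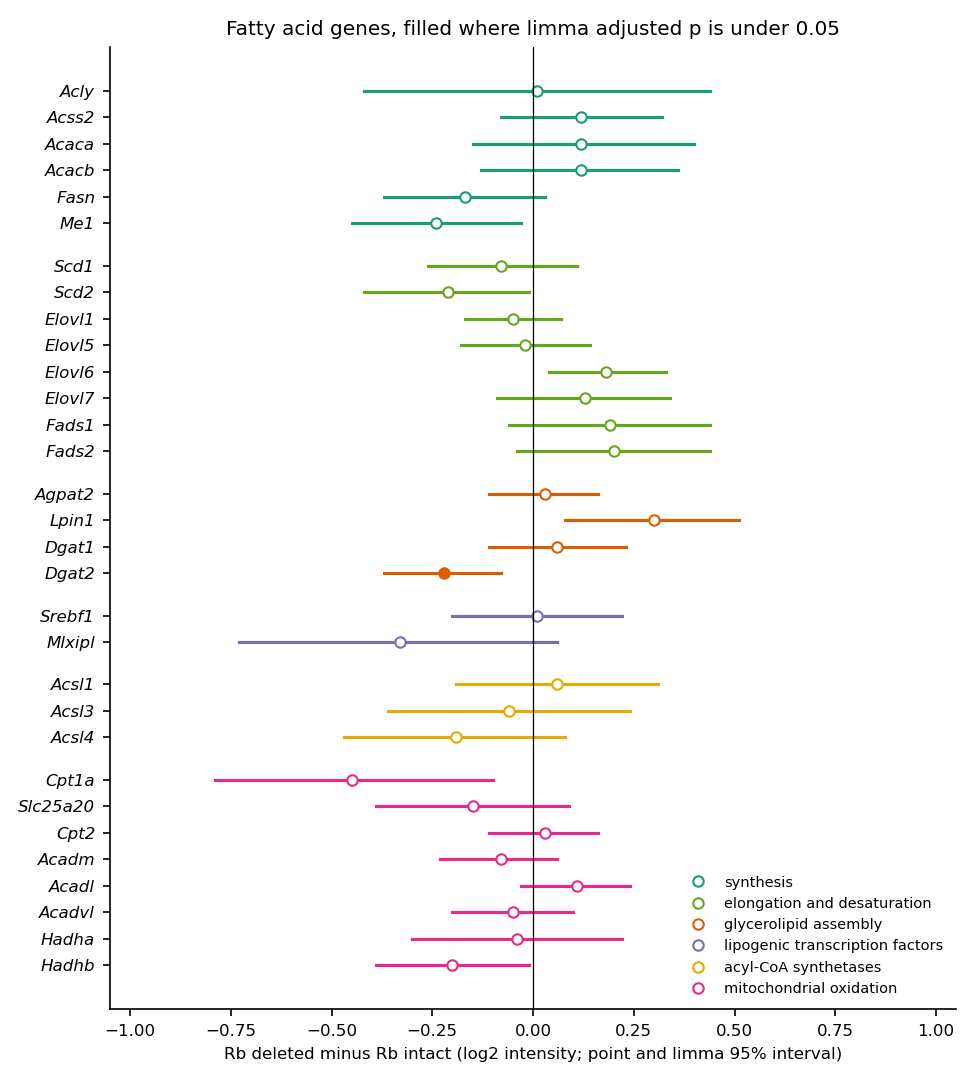
Difference between Rb deleted and Rb intact samples for the 31 measured members (x axis, log2 intensity; point, limma estimate; line, its 95% interval), grouped by role and coloured as in the legend; n = 3 arrays a group. The filled point is Dgat2 at -0.22, and the largest differences, Cpt1a at -0.45 and Lpin1 at 0.30, are open.

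The synthesis genes held no member that changed among 6 measured. Acly encodes ATP-citrate lyase, which makes cytosolic acetyl-CoA from citrate. It stood at 4.92, 5.0 and 4.92 in Rb deleted samples, against 4.51, 5.14 and 5.15 in Rb intact samples. Rb intact 1 lay below all other arrays and the other 2 Rb intact arrays above all Rb deleted ones, so the difference was 0.01 ± 0.18 (limma adjusted p = 0.967) with all arrays and -0.20 ± 0.04 (adjusted p = 0.0195) without Rb intact 1. A dimmer Acly probe gave -0.12 and was not called.

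Acaca and Acacb encode the acetyl-CoA carboxylases, the first cytosolic and serving synthesis, the second at the mitochondrial surface, where its malonyl-CoA restrains carnitine palmitoyltransferase 1. Acaca stood at 3.29, 3.25 and 3.22 in Rb deleted samples, against 2.87, 3.25 and 3.26 in Rb intact samples. The groups overlapped, and only Rb intact 1 was low. The difference was 0.12 ± 0.11 (limma adjusted p = 0.464) with all arrays and -0.00 ± 0.04 without Rb intact 1, and 2 dimmer Acaca probes gave -0.10 and -0.01. Acacb differed by 0.12 ± 0.10 (adjusted p = 0.45). Acss2, whose product makes acetyl-CoA from acetate, differed by 0.12 ± 0.08 (adjusted p = 0.346), and its second probe by 0.10.

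Fasn encodes fatty acid synthase, the enzyme that builds palmitate. Its level was -0.90, -0.78 and -0.68 in Rb deleted samples, against -0.53, -0.61 and -0.72 in Rb intact samples. Rb deleted 1 and 2 lay below every Rb intact array and Rb deleted 3 lay among them. The difference was -0.17 ± 0.08 (limma adjusted p = 0.2), and -0.28 with slide as a block (adjusted p = 0.286 when every probe was tested). The 95% interval of the difference was -0.37 to 0.03.

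The Fasn promoter is shown because Rb acts through E2F factors and Fasn is the central gene of the list. It was the only member with a match to the E2F site as searched here (TTTCCCGC, TTTCGCGC, TTTGCCGC or TTTGGCGC, either strand). The window runs from 250 bases before to 50 bases after the RefSeq start, chr11:120824498-120824797 on the minus strand of GRCm38.p6, and capitals mark the E2F match and matches to CCAAT on either strand.
Fasn: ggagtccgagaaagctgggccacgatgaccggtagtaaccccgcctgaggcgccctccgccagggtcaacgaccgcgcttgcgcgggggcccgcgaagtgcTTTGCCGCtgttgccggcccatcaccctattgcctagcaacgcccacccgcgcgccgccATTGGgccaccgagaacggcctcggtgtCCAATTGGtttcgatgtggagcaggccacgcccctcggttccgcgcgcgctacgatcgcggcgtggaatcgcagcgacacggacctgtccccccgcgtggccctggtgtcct
The E2F match starts at -149 from the RefSeq start, and the CCAAT matches start at -90, -62 and -59, the last 2 overlapping on opposite strands. RefSeq windows were given for 28 of the 33 members, 35 windows in all among 32851. The E2F letters were in 2.86% of the members' windows and 2.26% of all windows. CCAAT, the site of NF-Y, was in 42.9% of the members' windows and 37.4% of all, and the E-box CACGTG in 5.71% (Elovl5 and Mlxipl) and 7.15%. The sterol response element was searched in 3 forms. The whole form of 10 letters was in 0 of the members' windows and 0.0913% of all. The shorter forms were added after that count was seen: CACCCCAC was in 3 of the 35 windows (8.57%, against 2.87% of all; Acsl1, Elovl7 and Gpam), and TCACNCCAC in 2 (5.71%, against 1.24%; Acsl1 and Mlxipl). The PPAR element was searched in 2 forms: its whole repeat of 13 letters was in 0 of the members' windows and 0.0396% of all, and its single unit AGGTCA, added after that, was in 9 (25.7%, against 16.3%). Because these forms were tried in turn, the shares describe letters only and nothing is read from them.

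Me1 encodes the cytosolic malic enzyme, a source of NADPH. Its 3 probes were all lower in Rb deleted samples, by 0.24, 0.14 and 0.26. The probe that represents the gene in the fit over genes, A_55_P2009952, stood at 3.25, 3.18 and 3.11 in Rb deleted samples, against 3.26, 3.45 and 3.55 in Rb intact samples, with no overlap but with Rb intact 1 at the edge. That difference was -0.24 ± 0.09 (limma adjusted p = 0.102), and without Rb intact 1 it was -0.32 (adjusted p = 0.0133). Probe A_55_P2171413 had 2.47, 2.43 and 2.51 in Rb deleted samples, against 2.66, 2.81 and 2.75 in Rb intact samples, and fell by 0.26 ± 0.06 in a fit of each probe separately (adjusted p = 0.0397 over 23051 probes, of which 15.9% changed). With slide as a block the fall of that probe was no longer called (-0.27, adjusted p = 0.263), and leaving out any array other than Rb intact 1 also ended the call. Thrsp, which encodes a regulator of lipogenesis, was not well above background on any array.

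Elongation and desaturation genes held no call among 8. Elovl6, whose product lengthens palmitate to stearate, stood at 3.38, 3.43 and 3.41 in Rb deleted samples, against 3.14, 3.28 and 3.27 in Rb intact samples. Every Rb deleted array lay above every Rb intact array, and the difference was 0.18 ± 0.06 (limma adjusted p = 0.0797). Without Rb intact 1 it was 0.14 and passed the test (adjusted p = 0.0354), and with slide as a block it was 0.16 (adjusted p = 0.428).

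Scd1 and Scd2 encode stearoyl-CoA desaturases, which place the first double bond. Scd2 stood at 5.70, 5.60 and 5.64 in Rb deleted samples, against 6.02, 5.74 and 5.82 in Rb intact samples. The groups did not overlap, with Rb intact 1 the highest array, and the difference was -0.21 ± 0.08 (limma adjusted p = 0.127), or -0.13 without that array (adjusted p = 0.0877). Scd1 stood at 2.88, 2.75 and 2.91 in Rb deleted samples, against 2.80, 2.96 and 3.00 in Rb intact samples, and the groups overlapped (difference -0.08, adjusted p = 0.511).

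Fads1 and Fads2, the delta-5 and delta-6 desaturases of polyunsaturated fatty acids, differed by 0.19 ± 0.10 (limma adjusted p = 0.233) and 0.20 ± 0.10 (adjusted p = 0.202). Without Rb intact 1 these were 0.08 (adjusted p = 0.236) and 0.12 (adjusted p = 0.293). For Fads1, Rb intact 1 at 1.94 lay below the other 5 arrays, which ran between 2.23 and 2.40. The elongases of very long chains varied less: Elovl1 differed by -0.05, Elovl7 by 0.13 and Elovl5, which acts on polyunsaturated chains, by -0.02.

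In glycerolipid assembly 1 of 4 measured members fell and 0 rose. Dgat2 encodes a diacylglycerol acyltransferase, which adds the last fatty acid of a triglyceride. It stood at 0.53, 0.61 and 0.63 in Rb deleted samples, against 0.81, 0.75 and 0.88 in Rb intact samples. All Rb deleted arrays lay below all Rb intact arrays. The means were 0.59 ± 0.05 and 0.81 ± 0.07 (SD, n = 3 each), a difference of -0.22 ± 0.06, or 1.17-fold lower in Rb deleted samples (limma adjusted p = 0.0463). The direction was the same under 20 other settings, with differences between -0.28 and -0.19, and the call was kept in 7 of them. It was lost when any array but Rb intact 1 was left out, with slide as a block (-0.28, adjusted p = 0.163) and when p-values were adjusted over all probes (adjusted p = 0.0615). Dgat1, the unrelated enzyme of the same reaction, differed by 0.06 ± 0.07 (adjusted p = 0.56).

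Lpin1 encodes a phosphatidate phosphatase that also acts as a coactivator of PPAR target genes. It stood at -1.11, -1.04 and -0.91 in Rb deleted samples, against -1.47, -1.22 and -1.27 in Rb intact samples. The groups did not overlap. The difference, 0.30 ± 0.09, was the highest of the members but was not called (limma adjusted p = 0.0616), and with slide as a block it was 0.20 (adjusted p = 0.45). Rb intact 1 was the lowest array, and without it the difference was 0.23. Agpat2, whose product adds the second fatty acid, differed by 0.03. The probe of Gpam, the mitochondrial enzyme of the first step, was well above background on 2 Rb deleted arrays and 1 Rb intact array and was not tested.

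Srebf1 and Mlxipl encode SREBP-1 and ChREBP, which turn on lipogenic genes in answer to insulin or sterols and to carbohydrate. Srebf1 stood at -3.01, -2.89 and -2.96 in Rb deleted samples, against -3.11, -2.82 and -2.95 in Rb intact samples, with a difference of 0.01 ± 0.09 (limma adjusted p = 0.941). Its lowest array was Rb intact 1, without which the difference was -0.06. The 2 probes of Mlxipl went opposite ways. Probe A_55_P2045158 had -0.13, -0.38 and -0.20 in Rb deleted samples, against -0.27, 0.25 and 0.30 in Rb intact samples (difference -0.33 ± 0.16, adjusted p = 0.2). Probe A_55_P2119957 had -4.44, -4.41 and -4.46 in Rb deleted samples, against -4.95, -4.68 and -4.46 in Rb intact samples (difference 0.26 ± 0.13, not called). Rb intact 1 was the lowest Rb intact array on both probes, and without it the first gave -0.51 (adjusted p = 0.013 over all probes) and the second 0.13 (adjusted p = 0.249).

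Acyl-CoA synthetases activate fatty acids for either fate, and 0 of 3 were called. Acsl4, which prefers arachidonate, stood at 3.69, 3.66 and 3.60 in Rb deleted samples, against 4.10, 3.68 and 3.76 in Rb intact samples. Acsl3 stood at -0.11, -0.07 and -0.12 in Rb deleted samples, against 0.25, -0.21 and -0.17 in Rb intact samples. For both genes Rb intact 1 was the highest of the 6 arrays. The differences were -0.19 ± 0.11 (limma adjusted p = 0.277) and -0.06 ± 0.13 (adjusted p = 0.759), and without Rb intact 1 they were -0.07 and 0.08. Acsl1 differed by 0.06 ± 0.10.

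**Figure D2:**
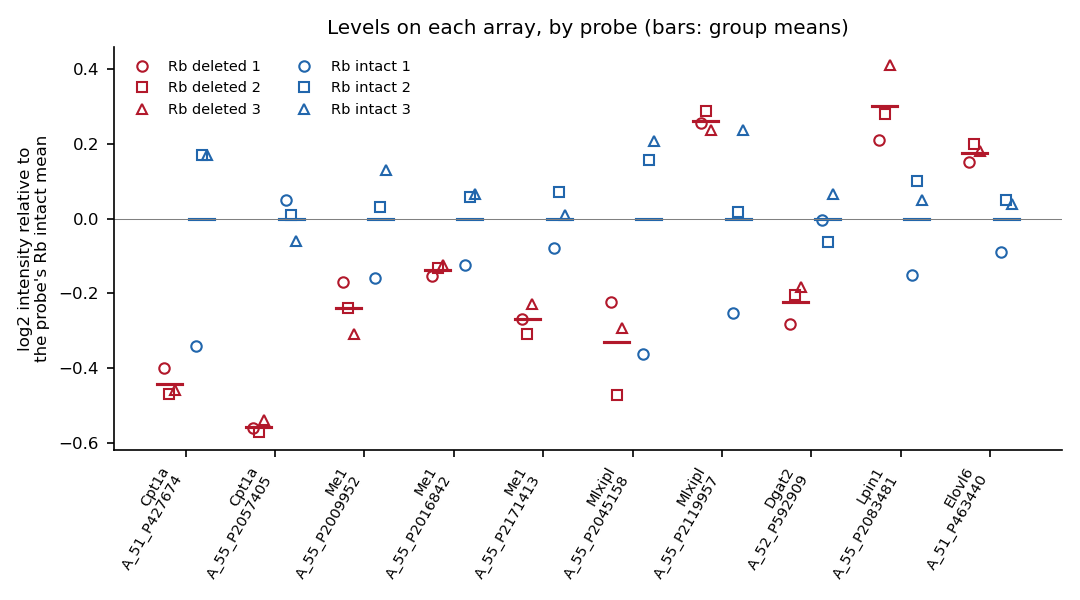
Level of each passing probe of Cpt1a, Me1, Mlxipl, Dgat2, Lpin1 and Elovl6 on each array (y axis, log2 intensity relative to the Rb intact mean of that probe; symbols mark the array, bars the group means, n = 3 each). On the first Cpt1a probe Rb intact 1 lies near the Rb deleted arrays, on the second it lies with Rb intact 2 and 3, and the 2 Mlxipl probes have differences of opposite sign, -0.33 and 0.26.

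Among the 8 mitochondrial oxidation genes none was called in the limma fit over genes, and 2 had an unadjusted p under 0.05, Cpt1a and Hadhb. Cpt1a encodes carnitine palmitoyltransferase 1A, the gate through which long chains enter mitochondria, and it had the largest difference of any member. Its main probe, A_51_P427674, spotted 10 times on each array, averaged 1.28, 1.21 and 1.22 in Rb deleted samples, against 1.34, 1.85 and 1.85 in Rb intact samples. The groups did not overlap, but Rb intact 1 lay 0.06 above the highest Rb deleted array. The difference was -0.45 ± 0.14 (limma adjusted p = 0.0761), and without Rb intact 1 it was -0.62 ± 0.04 (adjusted p = 0.000803). With slide as a block the difference on this probe was -0.40 and was not called.

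A second Cpt1a probe, A_55_P2057405, had -1.93, -1.94 and -1.91 in Rb deleted samples, against -1.32, -1.36 and -1.43 in Rb intact samples. On this probe Rb intact 1 lay with the other Rb intact arrays. In a fit of each probe separately it fell by 0.56 ± 0.06 (limma adjusted p = 0.00258). The call was kept when each array was left out in turn, with differences between -0.59 and -0.53, and with slide as a block (-0.56, adjusted p = 0.0463), and it was lost in the first slide alone (adjusted p = 0.174). Where a gene was represented by the mean of its probes, Cpt1a fell by 0.50 (adjusted p = 0.00612).

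The Cpt1a promoter is shown because its gene had the largest difference. It is chr19:3323051-3323350 on the plus strand of GRCm38.p6, from RefSeq, and the capitals mark its one CCAAT match, at -19.
Cpt1a: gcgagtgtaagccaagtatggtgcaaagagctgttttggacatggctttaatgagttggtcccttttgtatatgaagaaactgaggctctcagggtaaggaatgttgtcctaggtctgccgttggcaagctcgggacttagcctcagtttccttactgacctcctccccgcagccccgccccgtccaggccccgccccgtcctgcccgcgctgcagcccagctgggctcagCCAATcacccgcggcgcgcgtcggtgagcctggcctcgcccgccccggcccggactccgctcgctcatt
This window held 1 match to the single unit AGGTCA and no match to the E2F, E-box, whole PPAR or any of the 3 sterol forms.

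Behind the gate, Slc25a20, the carnitine and acylcarnitine carrier, differed by -0.15 ± 0.10 (limma adjusted p = 0.331) and was highest on Rb intact 1, without which it differed by -0.04 (adjusted p = 0.472). Cpt2, which remakes the acyl-CoA inside, differed by 0.03 ± 0.06 (adjusted p = 0.746). The acyl-CoA dehydrogenases take the first step of each oxidation round. Acadm for medium chains differed by -0.08 and Acadvl for very long chains by -0.05, each with overlapping groups. Acadl for long chains stood at 0.31, 0.26 and 0.28 in Rb deleted samples, against 0.25, 0.16 and 0.13 in Rb intact samples, with no overlap and a difference of 0.11 ± 0.05 (adjusted p = 0.219).

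Hadha and Hadhb encode the alpha and beta subunits of the mitochondrial trifunctional protein, which carries out the remaining steps on long chains. Hadhb stood at 1.89, 1.80 and 1.78 in Rb deleted samples, against 1.88, 2.11 and 2.08 in Rb intact samples. Hadha stood at -1.20, -1.21 and -1.15 in Rb deleted samples, against -0.91, -1.26 and -1.28 in Rb intact samples. Rb intact 1 was the lowest Rb intact array for Hadhb and the highest of all for Hadha. The differences were -0.20 ± 0.08 (limma adjusted p = 0.126) and -0.04 ± 0.11 (adjusted p = 0.822), and without Rb intact 1 they were -0.27 (Hadhb fell) and 0.08 (Hadha, not called).

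The promoter of Hadhb is shown because it is also that of Hadha: the genes run head to head with RefSeq starts 273 bases apart. The window is chr5:30155003-30155302 on the plus strand of GRCm38.p6, and capitals mark the 228 bases that the Hadha window shares with it.
Hadhb: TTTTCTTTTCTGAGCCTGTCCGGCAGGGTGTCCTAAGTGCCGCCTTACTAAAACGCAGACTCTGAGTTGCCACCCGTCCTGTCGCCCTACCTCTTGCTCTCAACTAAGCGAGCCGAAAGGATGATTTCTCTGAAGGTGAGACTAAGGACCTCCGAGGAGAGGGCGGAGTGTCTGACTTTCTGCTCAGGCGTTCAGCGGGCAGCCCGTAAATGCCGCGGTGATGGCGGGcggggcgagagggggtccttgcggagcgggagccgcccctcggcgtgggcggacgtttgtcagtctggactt
Neither window held a match to any form of any motif searched.

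Set beside each other, synthesis with desaturation had 0 of 14 measured members called and a median difference of 0.06 (8 higher and 6 lower in Rb deleted samples), and mitochondrial oxidation had 0 of 8 called and a median of -0.07 (2 higher and 6 lower). Without Rb intact 1 they were 0.02 and -0.03, and with slide as a block -0.01 and -0.10. Neither count takes in the dimmer probes of Cpt1a and Me1, which fell by 0.56 and 0.26 in a fit of each probe separately. The difference between the lists was not tested. By array, the synthesis list had a median deviation from each gene's mean over the 6 arrays of -0.05, 0.06 and 0.03 in Rb deleted samples, against -0.11, 0.08 and 0.07 in Rb intact samples. For mitochondrial oxidation the medians were -0.04, -0.05 and -0.02 in Rb deleted samples, against 0.06, -0.03 and -0.02 in Rb intact samples. In each of these lists Rb intact 1 was the most extreme array, and for acyl-CoA synthetases it reached 0.32.

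**Figure D3:**
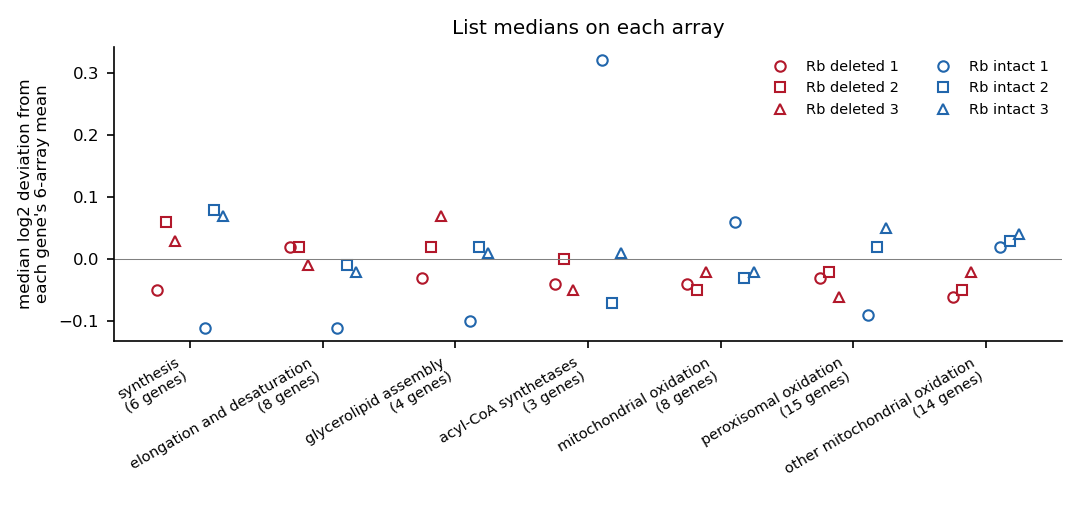
Median over each list of the genes' log2 deviation from their own mean over the 6 arrays (y axis), by array (symbols; Rb deleted left, Rb intact right of each label). Group values overlap in the synthesis list, and Rb intact 1 lies at -0.11 there and at 0.32 for acyl-CoA synthetases.

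Peroxisomal oxidation had 15 of 17 listed genes measured, of which 1 rose and 1 fell, with a median difference of -0.06. Thus 13.3% of the measured genes of this list changed, beside 20.4% of all genes tested. Amacr, whose racemase prepares branched chains for oxidation, stood at 2.71, 2.71 and 2.70 in Rb deleted samples, against 1.77, 1.92 and 1.83 in Rb intact samples. It rose 1.82-fold (difference 0.87 ± 0.06, adjusted p = 0.000426; slide as a block 0.87, adjusted p = 0.013; first slide alone, adjusted p = 0.0633). The sterol carrier gene Scp2 (-0.16) and the carnitine octanoyltransferase gene Crot (-0.15) were not called.

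The other 14 mitochondrial oxidation genes had a median of -0.09, and 1 fell. Etfb, the beta subunit of the flavoprotein that carries electrons from the acyl-CoA dehydrogenases, fell by 0.30 ± 0.07 (limma adjusted p = 0.0247; slide as a block -0.34, adjusted p = 0.15). Eci1 (-0.14), Hadh (-0.14) and the carnitine importer Slc22a5 (-0.43 ± 0.19, Rb intact 1 the highest) had groups without overlap and were not called. Groups without overlap were found for 7 of these 14 genes (50%), beside 45.2% of all genes tested. Without Rb intact 1, a fit that called 37.2% of all genes, the differences were -0.15 for Eci1 (adjusted p = 0.0422), -0.16 for Hadh (adjusted p = 0.0461) and -0.21 for Slc22a5 (adjusted p = 0.0333). Over all 37 measured oxidation genes of both organelles, 1 rose, 2 fell and 26 (70.3%) were lower, with a median of -0.08. Of all genes tested 20.4% changed and 47.4% were lower, with a median of 0.01, and the difference between the list and the other genes was not tested.

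Of the other synthesis and NADPH genes, 14 of 17 were measured and 2 fell, with a median of -0.05. Thus 14.3% of the measured genes of this list changed, beside 20.4% of all genes tested. Acsl6, an acyl-CoA synthetase outside the chosen members, stood at -1.43, -1.44 and -1.48 in Rb deleted samples, against -0.52, -0.64 and -0.80 in Rb intact samples, and fell 1.74-fold (difference -0.80 ± 0.08, limma adjusted p = 0.00175; slide as a block, adjusted p = 0.0374). Idh1, a cytosolic source of NADPH, fell by 0.26 (adjusted p = 0.0263; slide as a block, adjusted p = 0.252). G6pdx, which opens the pentose phosphate pathway to NADPH, differed by -0.21 and was not called (adjusted p = 0.0548). Hacd1, a dehydratase of elongation, differed by 0.13 and was not called.

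**Figure D4:**
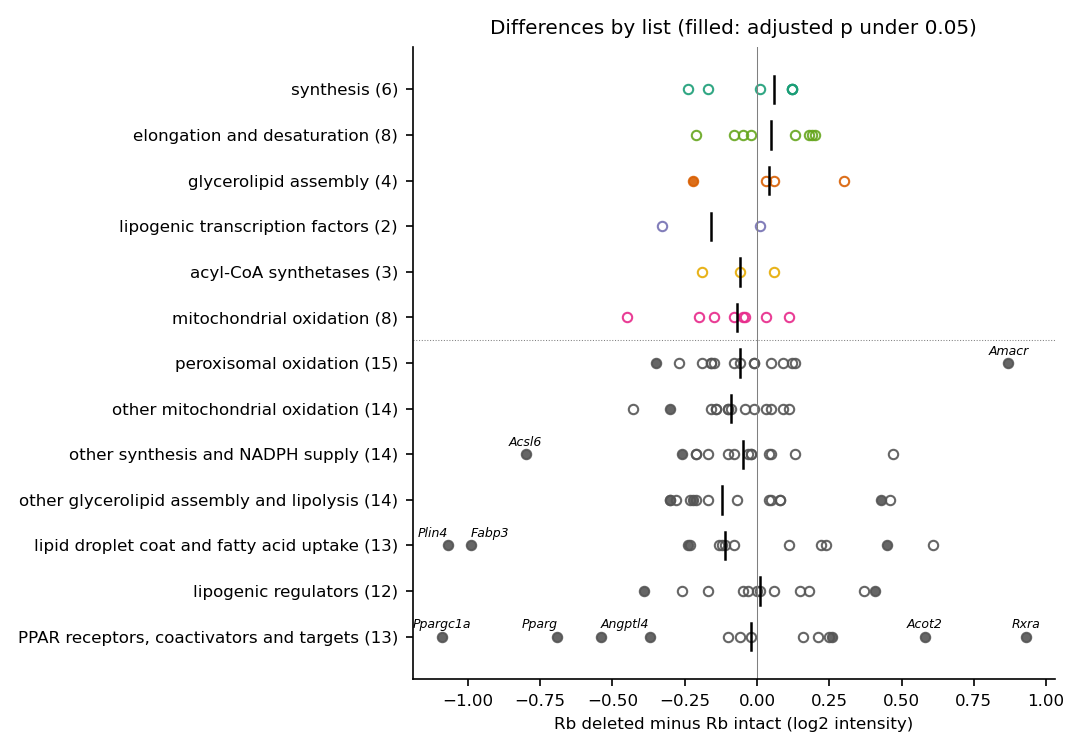
Difference between Rb deleted and Rb intact samples (x axis, log2 intensity) for each measured gene of the 6 member lists, above the dotted line, and of 7 further lipid lists below it; numbers in brackets are measured genes, filled points passed limma's adjusted p under 0.05 and black bars are list medians. Every median lies between -0.16 and 0.06, and the differences beyond 0.50 either way that passed are all below the line; the fitted point of Ppargc1a is not a measured fold, because its probe was not well above background in Rb deleted samples.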

How the data were processed

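The scanner files hold intensity values that the authors made with Agilent Feature Extraction; the version is 11.0.1.1 per the file headers and 10.7.3.1 per the submitters' processing notes: processed signals are background-subtracted and not scaled between arrays. The deposited files also carry other values, flags of 0 or 1 for spots above background, saturated or outlying. The authors also deposited log2 values, which equalled the log2 processed signal minus a constant per array within 0.01 for 100% of probes; what that constant stands for is not given in the sources used here.

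From 43020 non-control spots an array, without outlying ones, spots of a probe were averaged to 39429 probes as log2 and shifted by the array's 75th percentile. RefSeq accessions, without version, matched 27427 probes to 20832 genes of a GRCm38.p6 table, and 12002 stayed unnamed; the array was designed on mm9 per the file headers, so that table gave names only, and the promoter windows carry their own build. Each gene was its passing probe with the highest mean. The test was lmFit with eBayes (limma 3.58.1, R 4.3.3) on 3 against 3 arrays. In simulated data from 5 runs with 200 changed genes each, 94.5% of genes changed by 2 were recovered and 4.11% of calls were false. The simulated noise was independent between arrays, without slide or array effects, so these shares need not hold for the real arrays.

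Members, lists and tests were chosen with earlier results of these data known. Promoter windows were searched on both strands for E2F, CCAAT, E-box, 3 forms of the sterol response element and 2 of the PPAR element; the shorter forms were added after the whole ones matched 0 member windows, and all are reported. All members are accounted for, and of each further list up to 4 measured genes with the smallest p are named; some of these are not reported here. Other settings covered scaling, background, filter, probe choice, variance model, slide, replicate number, threshold, the deposited log2 values and each array left out; background was modelled on median signal with an offset of 50. The probe sequences were not used here, and the number of arrays limits the precision.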

Additional observations from a re-analysis of the deposited data

How the results depend on the processing

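The count of genes changed was 2806. It was 1491 with no filter on dim probes, 6144 with array weights, 671 with slide as a block, 151 in the first slide alone, 1127 at an adjusted p under 0.01 and 1254 to 5112 with 1 array left out. Members that rose numbered 1 with normexp on median signal, 3 with array weights, 2 at an adjusted p under 0.1 and 0 to 2 with 1 array left out. Members that fell numbered 0 with arrays shifted by their median, without the filter, with slide as a block, in the first slide alone, at an adjusted p under 0.01 and in the authors' deposited log2 values, 2 with the mean of a gene's probes and at an adjusted p under 0.1, 6 with array weights and 0 to 6 with 1 array left out. Synthesis and desaturation members changed numbered 3 with array weights, 1 at an adjusted p under 0.1 and 0 to 3 with 1 array left out. For mitochondrial oxidation the number was 1 with normexp, with the mean of probes, with the dimmest probe and at an adjusted p under 0.1, 3 with array weights and 0 to 3 with 1 array left out. Without Rb intact 1 alone, 2 members rose and 6 fell. With the replicate block 1661 genes changed, 0 members rose and 0 fell. The counts for synthesis with desaturation and for oxidation were 0 and 0. Deviations of same-numbered arrays from their group means had r of -0.03, -0.05 and 0.02 across genes, and the numbers were not taken as pairs. With 3 arrays a group and Rb intact 1 apart, these values cannot show whether same-numbered samples were related.

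The differences of 11 uncalled members changed sign. Acly, at 0.01, was -0.01 with normexp, -0.05 with the mean of probes, -0.12 with the dimmest probe, -0.17 with array weights, -0.02 with slide as a block and in the first slide alone, and -0.20 to 0.12 with 1 array left out. Acaca (0.12) was -0.02 with normexp, -0.10 with the dimmest probe and -0.00 to 0.19 with 1 array left out. Acacb (0.12) was -0.00 with normexp. With slide as a block and in the first slide alone, Acacb was -0.04, Elovl5 0.03, Agpat2 -0.04 and Srebf1 -0.05. With array weights Elovl5 was 0.02, Srebf1 -0.03, Acsl1 -0.04, Acsl3 0.08 and Hadha 0.07. With 1 array left out Elovl5 ran between -0.06 and 0.03, Srebf1 between -0.06 and 0.08, Acsl1 between -0.05 and 0.13, Acsl3 between -0.14 and 0.08, Cpt2 between -0.01 and 0.06 and Hadha between -0.11 and 0.08. Mlxipl was 0.26 with its dimmer probe. The cause was not tested. Signals below background gave no level for Thrsp, and 3 arrays a group with 1 Rb deleted array on the first slide limit every call.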

Other observations

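Larger differences than in any member were found among lipid genes outside the list of 33. In lipid droplet coat and fatty acid uptake genes, 13 of 19 were measured, of which 1 rose and 3 fell (30.8% changed, beside 20.4% of all genes tested), with a median difference of -0.11. Plin4, a lipid droplet coat protein gene, stood at -4.04, -3.53 and -3.45 in Rb deleted samples, against -2.64, -2.56 and -2.62 in Rb intact samples. It fell 2.10-fold (difference -1.07 ± 0.16, limma adjusted p = 0.00643) and was called under all 20 other settings, with slide as a block (-1.44, adjusted p = 0.0054) and first slide alone (adjusted p = 0.0289) among them. Fabp3, a cytosolic fatty acid binding protein gene, stood at 0.23, 0.26 and 0.10 in Rb deleted samples, against 1.25, 1.11 and 1.19 in Rb intact samples, and fell 1.98-fold (adjusted p = 0.000476; slide as a block, adjusted p = 0.0142). Fabp4, another binding protein of that family, stood at 2.19, 2.25 and 2.16 in Rb deleted samples, against 1.72, 1.82 and 1.71 in Rb intact samples, and rose by 0.45 ± 0.06 (adjusted p = 0.00423; slide as a block, adjusted p = 0.0698). Lpl, lipoprotein lipase, fell by 0.24 (adjusted p = 0.0384; slide as a block, adjusted p = 0.268). Of 8 adipocyte markers Fabp4 alone was well above background on all arrays, and Adipoq, Lep, Cfd, Cidec and Pck1 were not on any.

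Among PPAR receptors, coactivators and targets, 13 of 14 genes were measured, of which 3 rose and 3 fell without counting Ppargc1a, which passed the filter on dim probes only through the Rb intact arrays. Of all genes tested 9.66% rose and 10.8% fell. Pparg, the receptor that drives fat storage, stood at -3.54, -3.53 and -3.68 in Rb deleted samples, against -2.98, -2.86 and -2.84 in Rb intact samples, and fell 1.61-fold (difference -0.69 ± 0.07, limma adjusted p = 0.00175; slide as a block, adjusted p = 0.0381). Angptl4, a secreted inhibitor of lipoprotein lipase, stood at 5.60, 5.60 and 5.52 in Rb deleted samples, against 6.20, 6.03 and 6.12 in Rb intact samples, and fell by 0.54 ± 0.06 (adjusted p = 0.0028; slide as a block, adjusted p = 0.0547). Rxra, the dimer partner of the PPARs, rose by 0.93 ± 0.13 (adjusted p = 0.00508; slide as a block 0.88, adjusted p = 0.0801), and its second passing probe gave 0.37 and was not called. Acot2, a mitochondrial acyl-CoA thioesterase gene, rose by 0.58 ± 0.06 (adjusted p = 0.00247), a value left uncertain by its near-identical neighbour Acot1. The other genes called in this list, named after their values were seen, were Rxrb (0.26) and Pdk4 (-0.37). Neither was called with slide as a block. Ppargc1a entered the test only through the Rb intact arrays, where it was higher, so no p-value is given for it. It was not well above background on any Rb deleted array. With all arrays and the main settings its mean was at least 1.84-fold lower in Rb deleted samples. For that bound the Rb intact mean was divided by the Rb deleted mean after raising any weaker signal to the weakest signal that the scanner still flagged as above background on that array. The bound does not hold over other settings. Fitted differences, which use signals below background, ran between -1.3 and -0.48 in 18 of them, with -0.68 for slide as a block.

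In other glycerolipid assembly and lipolysis genes, 14 of 15 were measured: the lipin gene Lpin3 rose by 0.43 ± 0.05 (limma adjusted p = 0.00246; slide as a block, adjusted p = 0.0386), Lpin2 fell by 0.30 (adjusted p = 0.0178) and Mogat2 fell by 0.22 (adjusted p = 0.0423). Of 12 lipogenic regulators, Mbtps2, a protease that releases SREBPs, rose by 0.41 (adjusted p = 0.0224; its other probe gave 0.21), and Nr1h3, the liver X receptor alpha, fell by 0.39 ± 0.06 (adjusted p = 0.00737; slide as a block -0.38, adjusted p = 0.0967). The second Nr1h3 probe gave -0.27 and was not called, and the gene's call was also lost with the mean of its probes. Lpin2 (-0.37), Mogat2 (-0.25) and Mbtps2 (0.39) were not called with slide as a block. The share called was 21.4% in this glycerolipid and lipolysis list and 16.7% among the regulators, beside 20.4% of all genes tested. It was 30.8% in the lipid droplet list. No share is given for the PPAR list, because Ppargc1a passed the filter only through the Rb intact arrays. The lists were chosen with earlier results of these data known, so the shares are descriptions only. The share was below that of all genes in the peroxisomal (13.3%), other synthesis (14.3%) and other mitochondrial oxidation lists. Of the 21 calls in the 7 lists of lipid genes outside the 33, Ppargc1a included, 7 were kept with slide as a block and 1, Plin4, in the first slide alone.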
